A study of Rattus norvegicus with 36 samples.

Results

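Protein phosphatase genes were followed in developing rat extraocular muscle (EOM, the muscles that move the eye) and in a leg sample of gastrocnemius and soleus muscle. Members were the genes whose symbol begins with Ppp1 to Ppp6, Ppm1, Ptpn, Ptpr, Ptp4a or Dusp and whose probe set exceeded an intensity of 320 on 3 or more of the 36 arrays, with the probe set of the highest mean standing for a gene. This gave 58 of the 67 such genes on the array, among 3889 genes with a single symbol and 6674 probe sets tested. The remaining 9 genes (Ppp3r2, Ptprh, Ptprv, Ppp1r9a, Dusp4, Ptpn7, Ptprd, Ptpru and Ppp1r3b) did not pass: Ptpn7, just outside, exceeded the level on 2 arrays, and Ptprr, just inside, on 3. Of the members, 3 (Ptprz1, Ptprr and Ptprj) passed that level only through a group or a muscle in which they were high, so their differences are given as a description, with no test, although they stay in the counts of calls. The 12 groups were EOM and leg at postnatal days 0, 7, 14, 21, 28 and 45, with 3 arrays of total RNA in each, and no treatment or genetic change is named for any group. The labels name no strain, and nothing in them says that the 3 arrays of a group came from separate animals, so p-values measure the spread between these samples, which may be technical.

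Protein phosphatases remove phosphate from proteins. Phosphoprotein phosphatases of the PP1, PP2A and calcineurin types act on serine and threonine through a catalytic subunit that is steered by regulatory subunits; in muscle, PP1 and its inhibitors act on glycogen metabolism and contraction, and calcineurin, which is switched on by calcium and calmodulin, signals to the genes of slow fibres. The Ppm1 enzymes are metal-dependent and act without such subunits. The Ptpn and Ptpr genes encode cytoplasmic and membrane-spanning members of the tyrosine phosphatase family. The Dusp enzymes remove both kinds of phosphate, mainly from MAP kinases.

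The deposited intensities carry a common scaling, with array medians from 418.7 to 652.2, and arrays of a group correlated at 0.877 to 0.953 over the tested probe sets, lowest at EOM day 45. The 17 tested skeletal muscle markers summed to between 128599 and 378372 on each array. Ckm, the muscle creatine kinase gene, was at or under the floor on all 3 arrays of both muscles at days 21 and 28, while the muscle myosin genes Myh2, Myh4 and Myh7 were above it on every array. EOM day 45 replicate 3 stood apart with a muscle marker sum of 378372, against 166995 and 187039 on the other arrays of its group. Among the EOM day 21 arrays, replicates 1 and 3 carried leukocyte marker sums of 28487 and 33618, against 9903 on replicate 2.

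Between the muscles, few phosphatase genes differed around birth and more did from day 28, as was so over all probe sets. At day 0, 3 of the 58 members passed the test (adjusted p under 0.05), 2 higher and 1 lower in EOM, against 6.32% of all probe sets tested (3.93% higher, 2.4% lower); the members' share was 5.17%. The count was again 3 at day 7 (2 higher, 1 lower), where 4.97% of all probe sets were called, 3.33% higher and 1.65% lower. It was 3 at day 14 as well (0 higher, 3 lower), beside 4.91% of all, 2.61% higher and 2.31% lower. At day 21 it was 3 (1 higher, 2 lower), beside 4.03% of all, 3.48% higher and 0.554% lower. At day 28, 10 members passed (4 higher, 6 lower), or 17.2%, beside 11.8% of all probe sets, 7.63% higher and 4.17% lower. At day 45, 7 passed (1 higher, 6 lower), or 12.1%, beside 10.6% of all, 6.89% higher and 3.69% lower. Median differences of the members, EOM minus leg on the log2 scale, were 0.06, 0.00, -0.13, 0.04, -0.20 and 0.01 from day 0 to day 45, beside 0.05, 0.03, 0.01, 0.08, 0.05 and 0.01 over all probe sets tested. Fitted on the 6 arrays of an age alone, 0 members passed at day 21, 5 at day 28 and 2 at day 45 (Ppp1r1a and Ptprf). Without Ptprz1 the count was 2 at day 0 and 2 at day 7. At single ages, all EOM arrays lay above all leg arrays in 11.2% (day 45) to 15.9% (day 28) of all probe sets. They lay below all leg arrays in 7.73% (day 21) to 12% (day 28). In all, 15 members were called at 1 or more ages, 7 at 2 or more, and 43 at none, or 25.9%, 12.1% and 74.1%. The corresponding shares of all probe sets were 23.6%, 9.71% and 76.4%. Both the 15 and the 7 include Ptprz1, which is given without a test.

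**Figure D1:**
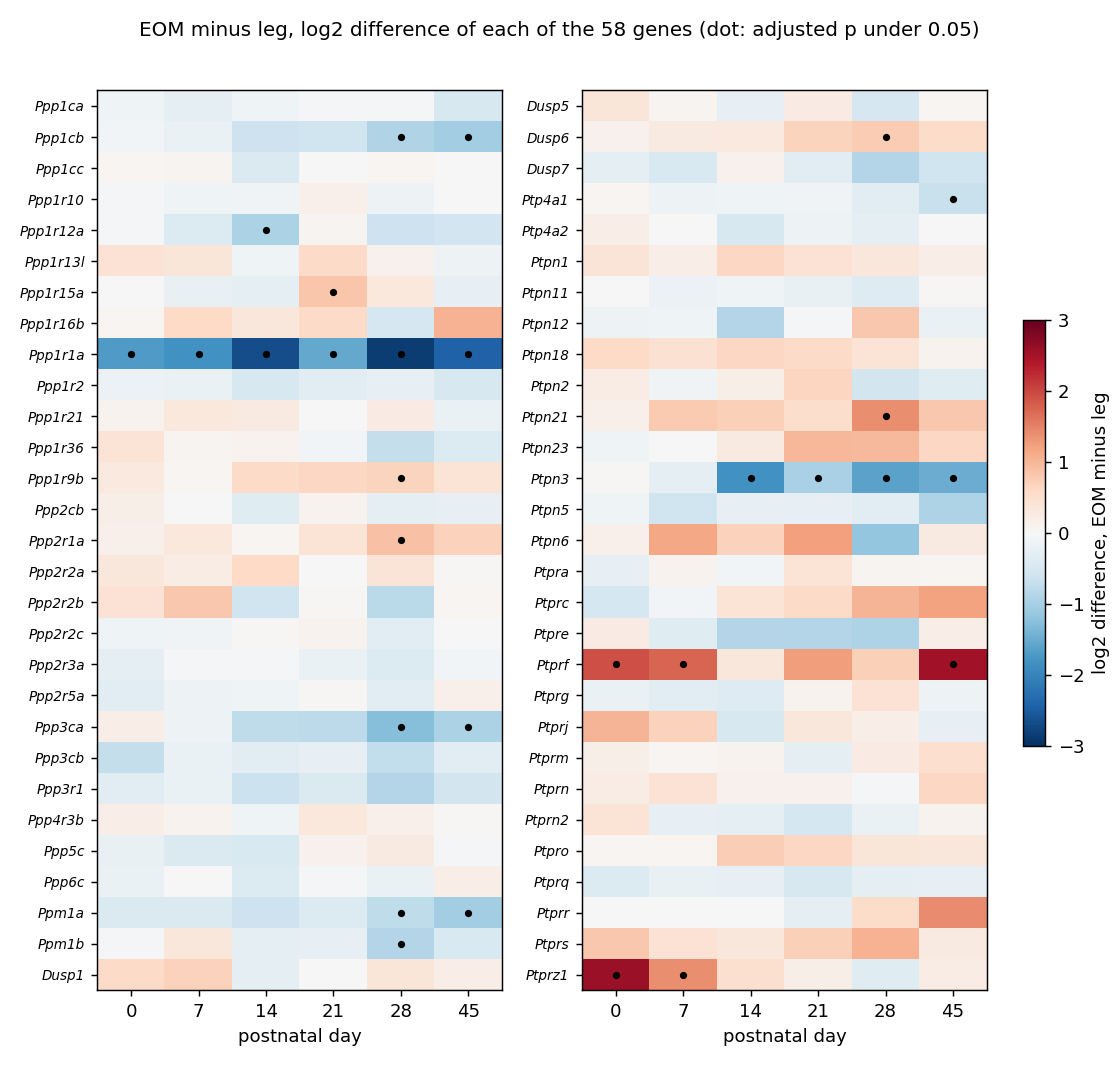
EOM minus leg log2 difference (colour, blue lower and red higher in EOM) of each of the 58 phosphatase genes at the 6 postnatal ages, ordered by family; a dot marks an adjusted p under 0.05. Ppp1r1a is dotted at each of the 6 ages, Ptpn3 from day 14, and Ptprf at days 0, 7 and 45.

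The PP1 inhibitor gene Ppp1r1a was lower in EOM than in leg at each of the 6 ages. It encodes inhibitor-1, which blocks PP1 once protein kinase A has phosphorylated it. At day 0 the leg arrays read 3959.9, 4187.7 and 3983.1 and the EOM arrays 1355.8, 1242.0 and 1121.0. The EOM arrays lay below the leg arrays without overlap, 3.27-fold lower (log2 difference -1.71 ± 0.31 SE, adjusted p = 0.000277).

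At day 7 the leg arrays read 6399.2, 5643.1 and 4841.6, and the EOM arrays 1546.1, 1384.8 and 1907.3. At day 14 the leg arrays read 10440.4, 10485.5 and 8310.8, and the EOM arrays 916.0, 2090.9 and 1924.4. Both ages again separated the muscles fully, by -1.81 ± 0.31 (adjusted p = 0.000194) and -2.65 ± 0.31 (adjusted p = 8.54e-07).

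At day 21 the 3 EOM arrays did not stay together for Ppp1r1a: replicates 1 and 2 read 7211.8 and 8136.2, and replicate 3 read 2239.0. The leg arrays were at 12790.6, 14536.9 and 17044.0, above all of them. The difference was -1.53 ± 0.31 (adjusted p = 0.00254), and -0.94 without EOM replicate 3 (adjusted p = 0.049). The leukocyte marker sums of these EOM arrays are given above, and their part in the Ppp1r1a values was not tested.

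At day 28 the leg arrays read 12181.1, 17214.6 and 15271.4 and the EOM arrays 1758.9, 2021.5 and 2448.2, and at day 45 the leg arrays read 10742.7, 14619.1 and 13900.7 and the EOM arrays 2535.8, 2518.4 and 2209.0. The differences were -2.84 ± 0.31 (adjusted p = 1.61e-07) and -2.42 ± 0.31 (adjusted p = 2.58e-06), with the leg arrays in the top 5% of all values (9392 and above), where a difference can be understated. A second Ppp1r1a probe set was called lower in EOM at the same 6 ages, by -1.96, -2.92, -3.08, -2.03, -3.79 and -2.89. From day 0 to day 45 Ppp1r1a rose in both muscles, by 1.68 ± 0.31 in leg (adjusted p = 6.24e-05) and 0.97 ± 0.31 in EOM (adjusted p = 0.015), the EOM call being lost without EOM day 0 replicate 3 (0.90). The difference between these changes did not pass the test (-0.71 ± 0.43, adjusted p = 0.5).

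Of the PP1 catalytic subunit genes, Ppp1cb differed between the muscles at the later ages. Ppp1cb encodes the beta catalytic subunit, which is also the catalytic part of myosin phosphatase. At day 28 the leg arrays read 12041.8, 17829.1 and 23626.5 and the EOM arrays 7839.7, 8290.1 and 11931.8. At day 45 the leg arrays read 15744.1, 21973.0 and 19921.5 and the EOM arrays 9963.6, 8405.1 and 9284.9. EOM lay below leg without overlap at both ages, by -0.90 ± 0.20 (adjusted p = 0.00235) and -1.05 ± 0.20 (adjusted p = 0.000541). Its probe set was in the top 5% of values on 29 of the 36 arrays. A second Ppp1cb probe set passed at day 45 (-0.86, adjusted p = 0.0323) and not at day 28 (-0.49, adjusted p = 0.257).

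At days 0 and 7 the Ppp1cb arrays overlapped (-0.08 ± 0.20 and -0.19 ± 0.20). At days 14 and 21 the EOM arrays lay below the leg arrays, by -0.61 ± 0.20 (adjusted p = 0.0735) and -0.60 ± 0.20 (adjusted p = 0.0843); with the replicate number as a block these passed, with adjusted p = 0.0379 and 0.0453. In leg Ppp1cb rose from day 0, when the arrays read 11706.3, 9340.2 and 10960.0, by 0.84 ± 0.20 to day 45 (adjusted p = 0.00134). In EOM it read 10449.1, 9400.7 and 10376.1 at day 0, overlapping its day 45 values (-0.13 ± 0.20, adjusted p = 0.667). The change to day 45 differed between the muscles by -0.97 ± 0.28 (adjusted p = 0.0473), close to the threshold: leaving out 1 array at a time ended this call for 11 of the 12 arrays, with values from -1.04 to -0.87. It was also lost with arrays scaled to the same median (-0.89, adjusted p = 0.232) and with no trend in the prior variance (adjusted p = 0.0672), and the second probe set read -0.62 (adjusted p = 0.489).

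The other catalytic genes showed no called difference between the muscles. Ppp1ca, encoding the alpha subunit, ranged from -0.49 to -0.04 over the 6 ages, and Ppp1cc, encoding the gamma subunit, from -0.44 to 0.09. Ppp1ca fell with age in both muscles, by -0.77 ± 0.20 in leg (adjusted p = 0.00268) and -1.11 ± 0.20 in EOM (adjusted p = 4.5e-05). In EOM its arrays went from 12898.5, 11148.8 and 11248.7 at day 0 to 4874.8, 4651.3 and 7049.7 at day 45, and in leg from 11558.0, 13813.7 and 13553.7 to 6481.8, 8586.0 and 7888.5, without overlap in either muscle. Ppp1cc was called in leg over all ages (F test, adjusted p = 0.04) and not between days 0 and 45 in leg (-0.29 ± 0.16) or EOM (-0.34 ± 0.16).

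Among the other PP1 regulatory subunit genes, 3 were called at 1 age each. Ppp1r12a encodes the subunit that targets PP1 to myosin. At day 14 it read 1414.2, 1254.3 and 1401.9 in leg and 750.7, 605.6 and 768.1 in EOM. The EOM arrays were the lower ones without overlap (-0.94 ± 0.24, adjusted p = 0.0143), and the call was lost without EOM day 14 replicate 2 (-0.84) or leg day 14 replicate 1 (-0.91). Of the 2 other Ppp1r12a probe sets, 1 was called lower at day 14 too (-1.34, adjusted p = 0.0482), and the other was called higher in EOM at day 28 (1.20, adjusted p = 0.0327), where the member probe set read -0.62 ± 0.24 (adjusted p = 0.0898). The probe sets of this gene therefore differ in direction at day 28.

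Ppp1r15a encodes the stress-induced subunit (GADD34) that directs PP1 to the translation factor eIF2 alpha. At day 21 it read 1080.9, 1219.5 and 683.5 in leg and 1811.3, 1764.9 and 1613.3 in EOM. EOM was higher without overlap (0.84 ± 0.21, adjusted p = 0.0151); the call was lost without leg day 21 replicate 3 (0.59), EOM day 21 replicate 1 (0.80) or EOM day 21 replicate 3 (0.89), and with arrays scaled to the same median (0.70) or quantile normalization (0.67). A second Ppp1r15a probe set read 0.58 (adjusted p = 0.444).

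Ppp1r9b encodes spinophilin, a scaffold that binds actin and PP1. At day 28 it read 2313.9, 2785.5 and 1910.6 in leg and 3934.4, 4142.3 and 3048.3 in EOM, again higher in EOM without overlap (0.67 ± 0.21, adjusted p = 0.0319). The call was lost without EOM day 28 replicate 1 (0.62) or 2 (0.58), or leg day 28 replicate 1 (0.67) or 3 (0.53), and with quantile normalization (0.54). A second Ppp1r9b probe set read 0.22 (adjusted p = 0.861). With the replicate number as a block it was also called at day 14 (0.57 ± 0.21, adjusted p = 0.116 without and 0.0294 with the block) and day 21 (0.62 ± 0.21, adjusted p = 0.0911 and 0.0219). With age, Ppp1r13l, encoding a p53-binding inhibitor (iASPP), fell in EOM (-0.64 ± 0.22, adjusted p = 0.0265), a call lost without any of EOM day 0 replicates 1, 2 or 3 (-0.62, -0.65 and -0.63) or EOM day 45 replicates 1 or 3 (-0.61 and -0.58), and with median scaling (-0.52) or quantile normalization (-0.51). Ppp1r36 rose in leg (1.37 ± 0.41, adjusted p = 0.0106), a call lost without leg day 0 replicate 1 (1.10). Ppp1r2, Ppp1r10, Ppp1r16b and Ppp1r21 passed in no comparison.

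**Figure D2:**
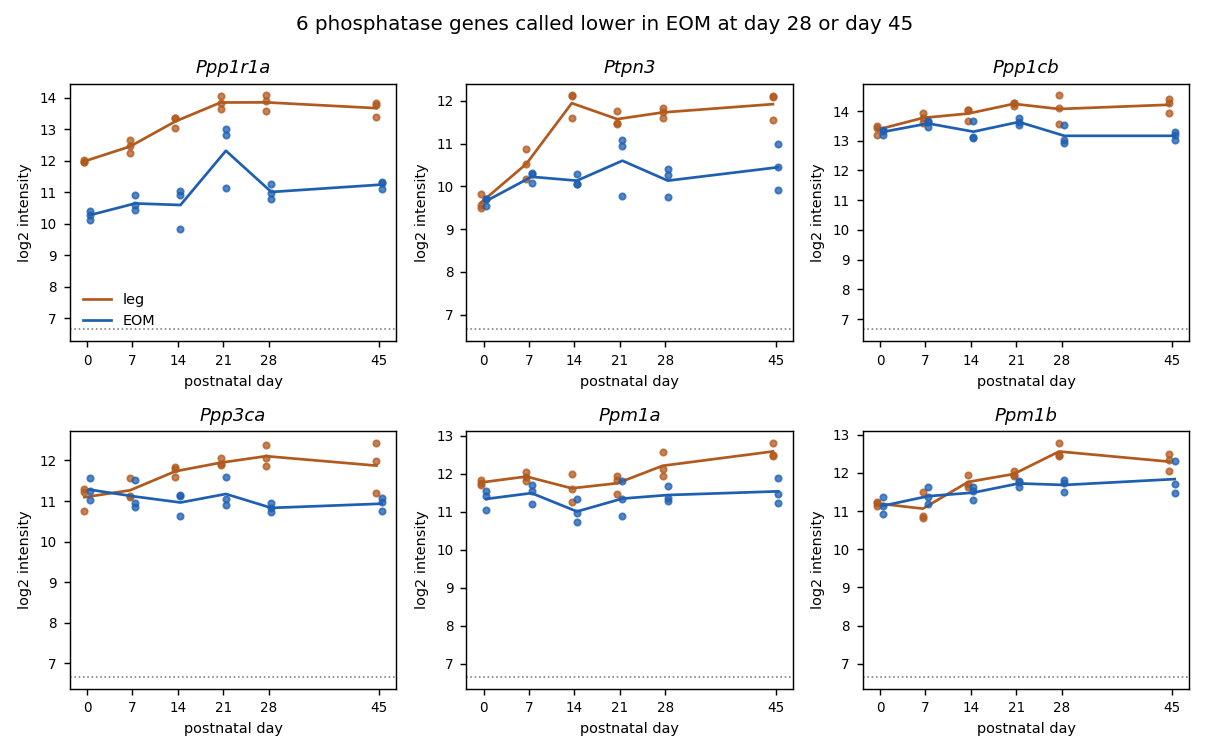
Log2 intensity on each array (points) and group mean (lines) against postnatal day for Ppp1r1a, Ptpn3, Ppp1cb, Ppp3ca, Ppm1a and Ppm1b in leg and EOM; the dotted line is the floor at log2 6.66, drawn where the axis reaches it. The leg and EOM means of Ptpn3 lie together at day 0 and are 1.48 apart at day 45, and those of Ppp1r1a are apart from day 0 (1.71).

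Of the calcineurin genes, the catalytic gene Ppp3ca was lower in EOM at days 28 and 45. At day 28 it read 5365.1, 3750.4 and 4272.5 in leg and 1983.7, 1691.3 and 1811.1 in EOM. The EOM arrays lay well below, 2.42-fold lower (-1.27 ± 0.24, adjusted p = 0.000515). At day 45 it read 4071.9, 5527.7 and 2359.5 in leg and 2007.7, 2146.6 and 1733.3 in EOM. The groups did not overlap, though leg replicate 3 was near the EOM arrays (-0.94 ± 0.24, adjusted p = 0.0106), and the call was lost without leg day 45 replicate 2 (-0.67).

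At the earlier ages Ppp3ca was not called, at 0.19 ± 0.24, -0.16 ± 0.24, -0.77 ± 0.24 (adjusted p = 0.0641) and -0.78 ± 0.24 (adjusted p = 0.0672) from day 0 to day 21. From day 0, when the leg arrays read 1721.1, 2523.7 and 2408.8, to day 45 it rose in leg by 0.78 ± 0.24 (adjusted p = 0.0134). The leg groups overlap, because leg day 45 replicate 3 lay below a pair of the day 0 arrays; this call was lost without leg day 45 replicate 1 (0.72), leg day 45 replicate 2 (0.50) or leg day 0 replicate 1 (0.61). In EOM the change was -0.35 ± 0.24 (adjusted p = 0.303). The difference between the changes, -1.13 ± 0.34, missed the threshold (adjusted p = 0.0629).

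The other catalytic gene, Ppp3cb, and the regulatory gene Ppp3r1, whose product binds calcium, were not called between the muscles at any age. Ppp3cb ranged from -0.75 to -0.19 and Ppp3r1 from -0.87 to -0.20 over the 6 ages, so that all 3 calcineurin genes had a negative value at each age but Ppp3ca at day 0. With the replicate number as a block, Ppp3r1 passed at day 28 (-0.87 ± 0.37, adjusted p = 0.133 without and 0.0297 with it). Ppp3r1 at EOM day 21 split as Ppp1r1a did, with 2938.7 and 3683.7 on replicates 1 and 2 and 1169.6 on replicate 3. Without the block, both genes were called in 1 muscle over age. Ppp3cb rose in EOM by 1.22 ± 0.37 (adjusted p = 0.0117), from 256.8, 425.9 and 288.0 to 707.8, 1278.1 and 441.3, a call lost without EOM day 0 replicate 1 (1.07) or EOM day 45 replicate 2 (0.82). Ppp3r1 rose in leg by 1.00 ± 0.37 (adjusted p = 0.0362), from 1864.3, 1356.8 and 1790.5 to 3648.7, 3707.9 and 2667.9, a call lost without leg day 0 replicates 2 or 3 (0.86 and 1.06) or leg day 45 replicates 1 or 2 (0.93 and 0.92), and with no filter on dim probe sets (adjusted p = 0.0575). The differences between the muscles' changes did not pass (0.38 ± 0.52 and -0.21 ± 0.52). With the block, Ppp3cb also passed in leg (0.84 ± 0.37, adjusted p = 0.0806 without and 0.0479 with it). Ppp3r1 then also passed in EOM (0.79 ± 0.37, adjusted p = 0.104 without and 0.0235 with it).

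Of 20 listed calcineurin partners (calmodulin genes, calcineurin regulators, NFAT and MEF2 factors), 4 were tested. Calm2, encoding calmodulin, was lower in EOM at day 14 (-0.71 ± 0.21, adjusted p = 0.0428) and day 28 (-1.0 ± 0.21, adjusted p = 0.00142). It fell with age in EOM (-0.89 ± 0.21, adjusted p = 0.00149), and its change differed from that in leg (-1.07 ± 0.30, adjusted p = 0.0369). Mef2d, a muscle transcription factor gene, was lower in EOM at day 45 (-0.78 ± 0.25, adjusted p = 0.0402). None of the 4 was called higher in EOM at any age. A list of 4 genes is too short to set against the shares of all probe sets given above.

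Of the 7 PP2A genes, 1 was called between the muscles, at day 28, while 4 were called with age in EOM and 3 in leg. Over all probe sets, too, more were called with age (31.3% in EOM and 32.8% in leg) than between the muscles at any single age (at most 11.8%). Ppp2cb, encoding a catalytic subunit, was not called at any age, with differences from -0.36 to 0.17. It fell in EOM by -0.83 ± 0.20 from day 0 to day 45 (adjusted p = 0.00218), from 4576.7, 4620.1 and 2632.5 to 2188.9, 2287.8 and 1985.3; in leg the change was -0.42 ± 0.20 (adjusted p = 0.116). The B55 regulatory gene Ppp2r2a fell in both muscles, by -0.97 ± 0.18 in EOM (adjusted p = 0.000118) and -0.69 ± 0.18 in leg (adjusted p = 0.00401), and with the block was called higher in EOM at day 14 (0.59 ± 0.18, adjusted p = 0.0585 without and 0.0402 with it). Neither of its 2 other probe sets was called, with -0.42 and 0.55 in EOM and -0.29 and -0.02 in leg. The B56 regulatory gene Ppp2r5a rose in both, by 1.05 ± 0.16 in EOM (adjusted p = 8.79e-06) and 0.58 ± 0.16 in leg (adjusted p = 0.00608). In EOM Ppp2r5a went from 4928.6, 4056.1 and 5017.0 at day 0 to 10716.0, 9451.5 and 8766.6 at day 45, and in leg from 6201.3, 5695.0 and 5388.8 to 8207.0, 8580.0 and 9099.6. Neither pair of groups overlaps.

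Ppp2r1a, encoding the scaffold subunit that joins the others, was the single PP2A gene called between the muscles. At day 28 it read 3192.6, 6067.2 and 4979.8 in leg and 8250.9, 9810.3 and 7392.7 in EOM. EOM was higher without overlap (0.88 ± 0.26, adjusted p = 0.0254), a call lost without leg day 28 replicate 1 (0.62) or EOM day 28 replicates 1 or 2 (0.89 and 0.77), and with median scaling (0.80) or quantile normalization (0.81). It fell with age in leg (-1.04 ± 0.26, adjusted p = 0.00233); a second Ppp2r1a probe set was called in neither comparison (0.38 at day 28, and -0.46 in leg with age, adjusted p = 0.0632). For the member probe set the EOM change was -0.52 ± 0.26 (adjusted p = 0.142). Ppp2r2c, another B55 gene, rose in EOM (0.64 ± 0.25, adjusted p = 0.0482); this call was lost without each of the 6 arrays in turn (0.50 to 0.74). Ppp2r2b and Ppp2r3a passed in no comparison of a pair of groups, and Ppp2r2b passed over all ages in EOM (F test, adjusted p = 0.0339). The difference of changes passed for none of the 7 PP2A genes.

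Of 43 listed other phosphatases and PP2A partners, 10 were tested. Of these, 3 were called between the muscles, all at day 28, the age with the largest share of calls over all probe sets. Cdc25b, a cell-cycle phosphatase gene, was higher in EOM (0.90 ± 0.26, adjusted p = 0.0217), as was Ssh3, of the slingshot cofilin phosphatases (1.62 ± 0.49, adjusted p = 0.0283). Ensa, whose product inhibits PP2A with B55, was lower (-0.96 ± 0.32, adjusted p = 0.0431). Pdp1, encoding the phosphatase that activates pyruvate dehydrogenase, rose with age by 1.57 ± 0.29 in EOM (adjusted p = 7.76e-05) and 1.41 ± 0.29 in leg (adjusted p = 0.000285). Over age, 4 of the 10 were called in EOM (1 higher, 3 lower) and 2 in leg (1 higher, 1 lower).

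The single tested genes of the PP4, PP5 and PP6 types, Ppp4r3b, Ppp5c and Ppp6c, passed in no comparison, with EOM minus leg values between -0.46 and 0.32. Both Ppm1 genes were called. Ppm1a, encoding a phosphatase that acts on stress-activated kinases, read 4465.2, 3923.6 and 6135.0 in leg and 2512.0, 3260.1 and 2641.4 in EOM at day 28. At day 45 it read 5807.2, 7171.0 and 5624.9 in leg and 3817.4, 2865.7 and 2413.2 in EOM. EOM was lower without overlap at both ages, by -0.77 ± 0.23 (adjusted p = 0.0243) and -1.05 ± 0.23 (adjusted p = 0.0024), and a second probe set was called the same way at both (-1.13 and -1.29). The day 28 call was lost without EOM day 28 replicates 1 or 3 (-0.70 and -0.73) or leg day 28 replicate 3 (-0.59). Ppm1a rose with age in leg (0.82 ± 0.23, adjusted p = 0.00603) and was not called in EOM (0.20 ± 0.23, adjusted p = 0.545), and the difference between these changes did not pass (-0.61 ± 0.32, adjusted p = 0.405).

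Ppm1b, its close relative, was lower in EOM at day 28, with 5528.0, 5689.6 and 7056.1 in leg and 2895.9, 3385.2 and 3625.1 in EOM (-0.88 ± 0.19, adjusted p = 0.00212). The groups were far apart at that age and overlapped at day 45 (-0.46 ± 0.19, adjusted p = 0.137). Ppm1b rose with age in both muscles, by 1.09 ± 0.19 in leg (adjusted p = 4.06e-05) and 0.70 ± 0.19 in EOM (adjusted p = 0.00551), the latter lost without EOM day 45 replicate 1 (0.46). None of the 3 other Ppm1b probe sets was called at day 28 (-0.81, -0.30 and -0.07). With age they read 1.57, 1.40 and -0.10 in leg, of which the first 2 were called, and 1.38, 0.54 and -0.57 in EOM, of which only the first was.

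Ptpn3 encodes a cytoplasmic tyrosine phosphatase with a FERM and a PDZ domain. Its level in leg climbed after birth, and EOM was called lower from day 14 on. At day 0 the muscles overlapped, with 752.3, 897.3 and 721.5 in leg and 835.6, 835.2 and 750.1 in EOM (0.03 ± 0.27), and they did at day 7 (-0.30 ± 0.27). At day 14 leg read 4490.1, 4420.0 and 3112.4 and EOM 1070.2, 1253.7 and 1060.3. That is 3.51-fold lower in EOM without overlap (-1.81 ± 0.27, adjusted p = 3.84e-05).

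At day 21 Ptpn3 read 2835.9, 2882.3 and 3471.7 in leg and 2169.4, 1959.4 and 882.2 in EOM, where replicate 3 was again the low array. EOM was lower (-0.97 ± 0.27, adjusted p = 0.0337), a call lost without EOM day 21 replicate 3 (-0.57) and without leg day 21 replicates 1, 2 or 3 (-1.03, -1.01 and -0.88). At day 28 it read 3123.4, 3453.6 and 3632.6 in leg and 852.9, 1354.8 and 1226.3 in EOM (-1.60 ± 0.27, adjusted p = 0.000107). At day 45 it read 4383.7, 4434.9 and 3010.7 in leg and 2018.1, 1400.1 and 963.0 in EOM (-1.48 ± 0.27, adjusted p = 0.000324). All EOM arrays lay below all leg arrays from day 14 on.

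From day 0 to day 45 Ptpn3 rose by 2.30 ± 0.27 in leg (adjusted p = 5.98e-08) and 0.79 ± 0.27 in EOM (adjusted p = 0.0232), the EOM call being lost without EOM day 0 replicate 3 (0.74) or EOM day 45 replicates 1 or 2 (0.53 and 0.79). The changes differed by -1.51 ± 0.38 (adjusted p = 0.019), a call lost without EOM day 45 replicate 3 (-1.24) or leg day 45 replicates 1 or 2 (-1.42 and -1.41). A second Ptpn3 probe set was negative from day 14 on, called at day 28 (-0.88, adjusted p = 0.0384) and not at day 14 (-0.89, adjusted p = 0.0649), day 21 (-0.39, adjusted p = 0.541) or day 45 (-0.42, adjusted p = 0.428). It rose in both muscles (1.67 in leg, 0.97 in EOM), and its changes did not differ by the test (-0.71, adjusted p = 0.454).

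Ptpn21, another FERM-domain phosphatase gene, was higher in EOM at day 28, with 1127.9, 1757.4 and 289.4 in leg and 2009.7, 2154.3 and 2410.2 in EOM. The groups did not overlap, and leg replicate 3 lay far under the other leg arrays (1.40 ± 0.34, adjusted p = 0.00534). Without that array the difference was 0.63 and was not called (adjusted p = 0.0638). A second Ptpn21 probe set read 0.32 (adjusted p = 0.727). At days 7, 14, 21 and 45 the EOM arrays also lay above the leg arrays, by 0.53 to 0.82, with no call. Such separation was seen in 11.2% to 13.2% of all probe sets at those ages.

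Of the remaining 8 Ptpn genes, Ptpn5, a gene best known from the striatum, rose in leg with age (1.44 ± 0.46, adjusted p = 0.0163), from 146.5, 52.1 and 236.9 to 471.0, 413.4 and 362.1, a call lost without leg day 0 replicate 2 (1.15) or leg day 45 replicate 1 (1.35). Ptpn1, whose product dephosphorylates the insulin receptor, was called higher in EOM at day 14 only with the block (0.61 ± 0.19, adjusted p = 0.052 without and 0.0292 with it). Ptpn11, encoding SHP2, and Ptpn2, Ptpn6, Ptpn12, Ptpn18 and Ptpn23 passed in no comparison.

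Of the small membrane-anchored Ptp4a phosphatases, Ptp4a1 was lower in EOM at day 45, with 9704.3, 14177.0 and 12098.6 in leg and 7514.8, 7737.0 and 7131.6 in EOM. The EOM arrays were close together and under all leg arrays (-0.67 ± 0.15, adjusted p = 0.00397). The call was lost on the arrays of that age alone (adjusted p = 0.175). With the block, Ptp4a1 was also called lower with age in EOM (-0.35 ± 0.15, adjusted p = 0.0467) and higher in leg (0.37 ± 0.15, adjusted p = 0.0317), and the changes differed (-0.71 ± 0.22, adjusted p = 0.0601 without and 0.0232 with it). Ptp4a2 rose in leg (0.51 ± 0.19, adjusted p = 0.0383), a call lost without leg day 0 replicates 1 or 3 (0.40 and 0.56) or leg day 45 replicates 2 or 3 (0.36 and 0.53), with median scaling (0.54, adjusted p = 0.0873) and with no trend in the prior variance (adjusted p = 0.0517).

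Ppp1r1a, Ptpn3, Ppp1cb, Ppp3ca and Ppm1a were the 5 members called lower in EOM at both day 28 and day 45. Of the skeletal muscle markers, Tnni1 (-0.87 and -1.14) and Actn2 (-1.06 and -0.86) were also called lower at both ages. Myh3, Myh8 and Myh13 were called higher at both, and the part of muscle content in the phosphatase values was not tested. The 250 bases before the RefSeq gene start (build GRCr8) are shown for the 4 of these 5 members that the RefSeq promoter table holds. These members moved the same way and were chosen after their values were seen. Capitals mark the E box, CANNTG, the motif bound by the myogenic factors.
Ptpn3: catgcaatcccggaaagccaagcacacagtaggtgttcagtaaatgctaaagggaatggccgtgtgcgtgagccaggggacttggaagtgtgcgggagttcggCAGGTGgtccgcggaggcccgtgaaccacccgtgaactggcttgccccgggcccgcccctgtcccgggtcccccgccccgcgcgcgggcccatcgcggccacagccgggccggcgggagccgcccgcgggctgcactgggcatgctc
Ppp1cb: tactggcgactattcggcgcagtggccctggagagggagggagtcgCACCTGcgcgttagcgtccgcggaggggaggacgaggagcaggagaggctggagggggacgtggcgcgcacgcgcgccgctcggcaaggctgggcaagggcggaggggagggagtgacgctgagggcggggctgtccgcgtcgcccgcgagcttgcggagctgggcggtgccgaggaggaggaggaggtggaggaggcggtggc
Ppp3ca: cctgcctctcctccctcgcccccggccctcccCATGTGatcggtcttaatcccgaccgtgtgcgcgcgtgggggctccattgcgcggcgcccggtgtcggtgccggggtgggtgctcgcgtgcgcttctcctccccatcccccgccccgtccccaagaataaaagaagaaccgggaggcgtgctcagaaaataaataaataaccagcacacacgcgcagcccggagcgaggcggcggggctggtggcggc
Ppm1a: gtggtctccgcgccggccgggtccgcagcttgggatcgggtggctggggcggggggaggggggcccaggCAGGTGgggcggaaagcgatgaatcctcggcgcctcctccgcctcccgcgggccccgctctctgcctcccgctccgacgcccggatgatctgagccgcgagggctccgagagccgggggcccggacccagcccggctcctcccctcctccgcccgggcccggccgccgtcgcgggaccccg
The stretches are chr5:76821222-76821471 on the minus strand for Ptpn3, chr6:29712836-29713085 on the minus strand for Ppp1cb, chr2:227839357-227839606 on the plus strand for Ppp3ca and chr6:97178893-97179142 on the plus strand for Ppm1a. Each holds 1 E box, as 65.5% of 33469 RefSeq promoters of this length hold at least 1. The GC box GGGCGG, searched on both strands, occurs 3 times in Ptpn3, Ppp1cb and Ppm1a and 1 time in Ppp3ca (30.5% of all promoters hold it). The NFAT core GGAAA occurs 1 time each in Ptpn3 and Ppm1a and is not in the other 2 windows (56.9% of all). The MEF2 motif is in none of the 4 (2.96% of all). GC content was 70.4%, 73.6%, 68% and 79.6%, beside a median of 51.2%. These matches describe letters only.

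Among the receptor tyrosine phosphatases, Ptprf was higher in EOM at days 0 and 7. Ptprf encodes LAR, a cell-adhesion receptor phosphatase of epithelia and neurons. At day 0 it read 1058.8, 1850.8 and 1630.5 in leg and 6079.2, 6899.4 and 4263.5 in EOM. EOM was 3.83-fold higher without overlap (1.94 ± 0.41, adjusted p = 0.00185). At day 7 it read 774.8, 1013.2 and 925.2 in leg and 3271.6, 4049.0 and 2054.3 in EOM (1.74 ± 0.41, adjusted p = 0.00718), a call lost without EOM day 7 replicate 2 (1.53).

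Between days 14 and 28 Ptprf was not called (0.33 ± 0.41, 1.25 ± 0.41 and 0.71 ± 0.41). At day 45 it read 46.6, 155.6 and 122.4 in leg, all low and 1 at the floor, and 890.5, 953.9 and 425.1 in EOM, at least 5.73-fold higher (2.52 ± 0.41, adjusted p = 7.53e-05). Ptprf fell with age in both muscles, by -3.57 ± 0.41 in leg (adjusted p = 3.84e-08) and -2.98 ± 0.41 in EOM (adjusted p = 1e-06), and the changes did not differ by the test (0.58 ± 0.57, adjusted p = 0.743).

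Markers of epithelium and glands moved beside Ptprf at the first ages. All 11 tested markers were higher in EOM at day 0 and 8 of 11 at day 7, with none called from day 14 to day 28 and 1, Krt18, at day 45. Their summed intensity in EOM was 34094 to 46276 at day 0, 11148 to 24328 at day 7 and 3354 to 4012 at day 14. In leg it was 3356 to 5994 at day 0 and 3157 to 5188 at day 7, and at day 45 it was 3175 to 6469 in EOM and 3063 to 4044 in leg. Krt18 was at the floor on all 3 leg arrays at day 45 and Krt5, Krt8 and Epcam were not called there. In whole tissue, fewer cells of a type and less RNA per cell cannot be told apart, and the part of these cells in the Ptprf values was not tested.

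Ptprz1, a receptor phosphatase known from glia and developing nervous tissue, exceeded 320 on 6 arrays, the EOM arrays of days 0 and 7. It is a member because of the groups in which it is high, so its values describe those groups and test nothing. At day 0 it read 66.4, 101.2 and 137.3 in leg and 685.5, 724.6 and 624.7 in EOM. The EOM arrays lay at least 6.05-fold above the leg arrays, of which 1 was at the floor (2.60 ± 0.35). At day 7 it read 131.8, 136.4 and 167.0 in leg and 341.1, 448.3 and 353.7 in EOM, again without overlap (1.39 ± 0.35).

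From day 14 on, the Ptprz1 arrays of both muscles overlapped between 28.7 and 227.3, with 0 calls. Its change from day 0 to day 45 was -2.18 ± 0.35 in EOM and 0.18 ± 0.35 in leg, and the EOM change minus the leg change was -2.37 ± 0.49, or -2.67 with the floor at the 10th percentile. With that floor the day 7 difference and the difference of the changes, both counted as calls here, missed the threshold (adjusted p = 0.303 and 0.0922). Values at the floor understate the EOM fall.

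Of 16 tested Schwann cell and axon markers, 5 were called at day 0 (4 higher, 1 lower in EOM) and 5 higher at day 7, then 5, 4, 8 and 5 higher at days 14, 21, 28 and 45. Sox10, a defining factor of Schwann cells, was among them at day 0 (4.04 ± 0.42, adjusted p = 5.17e-08) and day 7 (4.09 ± 0.42, adjusted p = 9.52e-08), and was at the floor on all leg arrays at day 7. It was also called higher at day 14 (2.33 ± 0.42, adjusted p = 0.000596) and day 28 (1.84 ± 0.42, adjusted p = 0.00334), when Ptprz1 was not called. At days 21 and 45 Sox10 was not called (0.40 ± 0.42 and 1.02 ± 0.42). Sox10 fell in EOM by -3.41 ± 0.42 (adjusted p = 2.14e-07), and the change differed from that in leg by -3.01 ± 0.60 (adjusted p = 0.00201). These markers did not move alike with age in EOM: L1cam fell (-1.30 ± 0.50, adjusted p = 0.0453), Ngfr rose (1.52 ± 0.40, adjusted p = 0.00391), and the others were not called. In the difference of changes, Pmp22 was called the other way from Sox10 (1.76 ± 0.35, adjusted p = 0.00199). The summed intensity was 36211 to 36621 in EOM and 29378 to 36455 in leg at day 0. At day 28 it was 38674 to 48700 in EOM and 18426 to 20832 in leg, when Ptprz1 was not called. The epithelium and gland markers described beside Ptprf moved with Ptprz1 as well: all 11 were higher in EOM at day 0, 8 at day 7 and none from day 14 to day 28, and 10 of 11 fell in EOM from day 0 to day 45, with 6 called in the difference of changes, all lower in EOM. The part of either kind of cell in the Ptprz1 values was not tested.

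**Figure D3:**
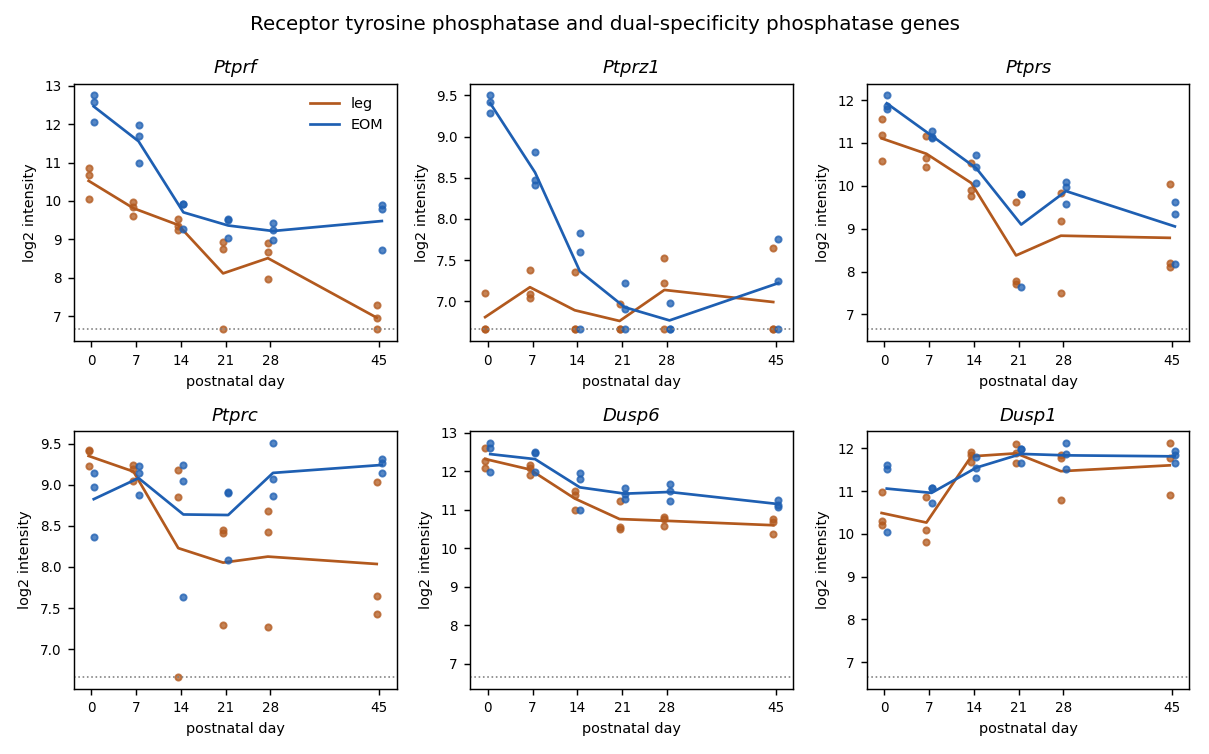
Log2 intensity on each array (points) and group mean (lines) against postnatal day for Ptprf, Ptprz1, Ptprs, Ptprc, Dusp6 and Dusp1 in leg and EOM; the dotted line is the floor at log2 6.66. Ptprf and Ptprz1 are higher in EOM at day 0 by 1.94 and 2.60, and Ptprf, Ptprs and Dusp6 are lower at day 45 than at day 0 in both muscles.

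Ptprs, of the same subfamily as Ptprf and a receptor for matrix proteoglycans, was called in neither direction between the muscles, with values from 0.27 to 1.04. It fell with age in both, by -2.87 ± 0.56 in EOM (adjusted p = 0.000196) and -2.32 ± 0.56 in leg (adjusted p = 0.00175). In EOM it went from 4414.9, 3745.0 and 3534.7 to 290.3, 652.9 and 792.2, and in leg from 1525.7, 2331.4 and 3005.7 to 295.6, 1052.6 and 276.6, without overlap. Of its 3 other probe sets, 1 was called lower in both muscles (-1.51 and -0.86), 1 was lower without a call (-2.06 and -1.41), and 1 was positive without a call (0.79 and 0.71).

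Ptprc encodes CD45, which marks leukocytes. It was not called between the muscles, although the EOM arrays lay above the leg arrays at day 28 (1.02 ± 0.50, adjusted p = 0.214) and day 45 (1.21 ± 0.50, adjusted p = 0.133). In leg it fell from 682.3, 683.6 and 600.0 at day 0 to 200.7, 172.8 and 522.6 at day 45 (-1.32 ± 0.50, adjusted p = 0.0436), a call lost without leg day 0 replicates 1, 2 or 3 (-1.29, -1.28 and -1.38) or leg day 45 replicates 1 or 2 (-1.12 and -1.01), with median scaling (-1.28), with the floor at the 10th percentile (adjusted p = 0.0703) and with no filter on dim probe sets (adjusted p = 0.0644). Of 10 tested leukocyte markers, 4 were higher in EOM at day 21 (Cd74, Lyz2, Coro1a and Aif1), 1 at day 45 (Cd48) and 0 at the other ages. At EOM day 21, where their sum spanned 9903 to 33618, Ptprc read 482.2, 477.1 and 273.0, the last on the array with the highest sum.

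Ptprr, whose product binds MAP kinases, exceeded 320 on 3 arrays in all, of which 2 were of EOM day 45. It was at the floor on all 3 EOM arrays at day 0 and read 623.7, 148.7 and 325.5 at EOM day 45, at least 1.63 higher on the log2 scale (SE 0.49). Without EOM day 45 replicate 1 the value was 1.12, and with the floor at the 10th percentile it was 2.57. The 9 other receptor genes were called in no comparison of a pair of groups. Of these, Ptpre (adjusted p = 0.00449) passed the F test over all ages in EOM, Ptpra (adjusted p = 0.0248) in leg, and Ptprm in EOM (adjusted p = 0.0416) and leg (adjusted p = 0.00783). Ptprj, which is counted with them in EOM, exceeded 320 on 5 arrays, all of EOM.

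**Figure D4:**
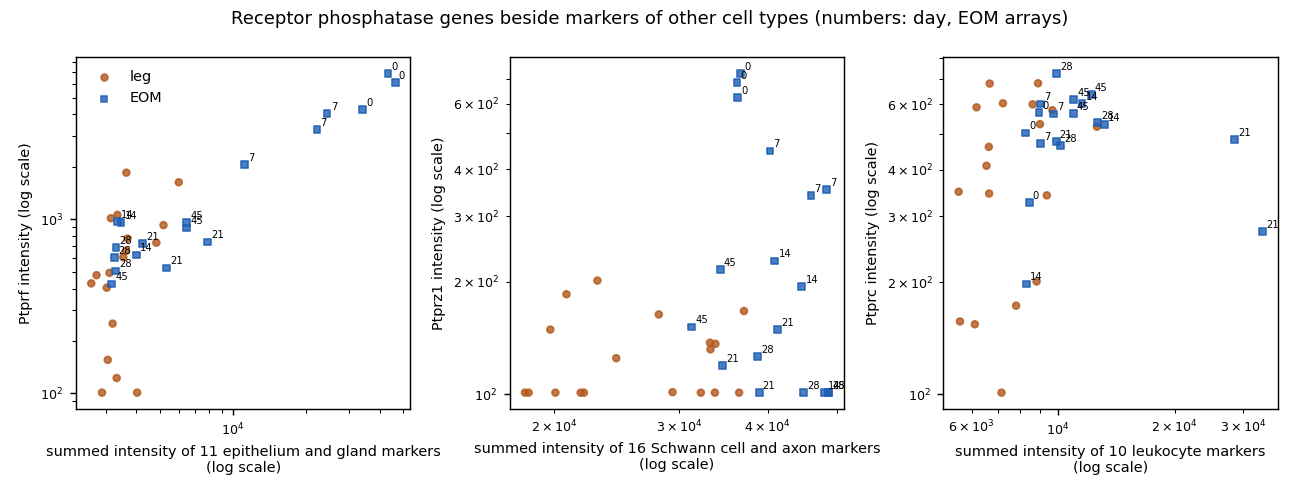
Intensity of Ptprf, Ptprz1 and Ptprc on each of the 36 arrays against the summed intensity of 11 epithelium and gland, 16 Schwann cell and axon, and 10 leukocyte markers (log axes, values under the floor drawn at the floor, EOM arrays numbered by day). EOM arrays of days 0 and 7 lie at the upper right of the Ptprf panel, with marker sums of 11148 to 46276; the Ptprz1 panel has EOM day 28 arrays with marker sums of 38674 to 48700 and Ptprz1 near the floor.

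Among the dual-specificity phosphatases, Dusp6, which inactivates ERK kinases in the cytoplasm, fell with age in both muscles and was higher in EOM at day 28. The day 28 arrays read 1738.2, 1789.8 and 1525.1 in leg and 2379.8, 3258.0 and 2884.0 in EOM, without overlap (0.75 ± 0.23, adjusted p = 0.0304). This call was lost without EOM day 28 replicates 2 or 3 (0.64 and 0.73), leg day 28 replicates 1 or 3 (0.77 and 0.68), and with median scaling (0.66) or quantile normalization (0.60). A second probe set was called there as well (1.72, adjusted p = 0.00956). At days 21 and 45 the EOM arrays also lay above the leg arrays without a call (0.66 ± 0.23 and 0.55 ± 0.23).

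From day 0 to day 45 Dusp6 went from 4936.7, 6235.3 and 4292.9 to 1318.2, 1626.4 and 1733.7 in leg, and from 6250.3, 6781.8 and 4055.0 to 2231.5, 2445.7 and 2139.6 in EOM. The falls were -1.72 ± 0.23 (adjusted p = 6.59e-07) and -1.29 ± 0.23 (adjusted p = 5.17e-05). They did not differ by the test (0.42 ± 0.32, adjusted p = 0.644).

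Dusp1, an immediate early gene for a nuclear MAP kinase phosphatase, rose in leg by 1.11 ± 0.34 (adjusted p = 0.0107), from 1174.0, 2004.4 and 1251.5 to 1907.1, 4444.9 and 3510.4. The leg groups overlap by 1 array, and the call was lost without leg day 0 replicate 1 (0.97) or leg day 45 replicate 2 (0.85). The EOM change was 0.75 ± 0.34 (adjusted p = 0.0912). Dusp5 and Dusp7 passed in no comparison.

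Of 19 listed MAP kinase genes, 11 were tested. Mapk12, encoding the p38 gamma kinase of skeletal muscle, was lower in EOM at day 0 (-1.46 ± 0.43, adjusted p = 0.0352) and day 7 (-1.48 ± 0.43, adjusted p = 0.037). It rose with age by 2.94 ± 0.43 in EOM (adjusted p = 2.99e-06) and 2.68 ± 0.43 in leg (adjusted p = 1.07e-05). At day 28, 3 were called, all lower in EOM: Mapk14, the p38 alpha gene (-0.83 ± 0.23, adjusted p = 0.0154), Map2k6, an activator of p38 (-0.82 ± 0.21, adjusted p = 0.00956), and Mapk6 (-0.81 ± 0.22, adjusted p = 0.0145). Mapk14 was lower at day 45 too (-1.0 ± 0.23, adjusted p = 0.00395). At day 14, 1 was called each way and at day 21 none was. Over all probe sets, too, day 28 had the largest share of calls between the muscles, as given above.

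From day 0 to day 45, 15 members were called in EOM (7 higher, 8 lower), or 25.9%, beside 31.3% of all probe sets tested (12.9% higher, 18.4% lower). Without Ptprz1 and Ptprr the EOM count was 13. In leg 19 were called (12 higher, 7 lower), or 32.8%, beside 32.8% of all (14.4% higher, 18.4% lower). The median change of the members was -0.03 in EOM and 0.06 in leg, beside -0.04 and 0.06 over all probe sets. Day 45 arrays lay above all day 0 arrays in 16.9% of all probe sets in EOM and 22.5% in leg. They lay below in 23.2% and 22.7%. The calls fell in both muscles for 9 members, in EOM alone for 6, in leg alone for 10 and in neither for 33, or 15.5%, 10.3%, 17.2% and 56.9%, beside 20.3%, 11%, 12.5% and 56.2% of all probe sets. The 6 of EOM alone include Ptprz1 and Ptprr, which are given without a test. A call in a single muscle does not show that the muscles differ. The test of the difference was passed by Ptpn3 and Ppp1cb, both with the lower value in EOM. Ptprz1, given without a test, brings the count of calls from 2 to 3, beside 3.7% of all probe sets (2.25% higher, 1.45% lower). The members' median difference was -0.19, beside -0.04. Over all 6 ages, the F test called 17 members in EOM (29.3%, background 31.3%) and 22 in leg (37.9%, background 35.9%). Without Ptprz1, Ptprr and Ptprj the EOM count was 14.

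**Figure D5:**
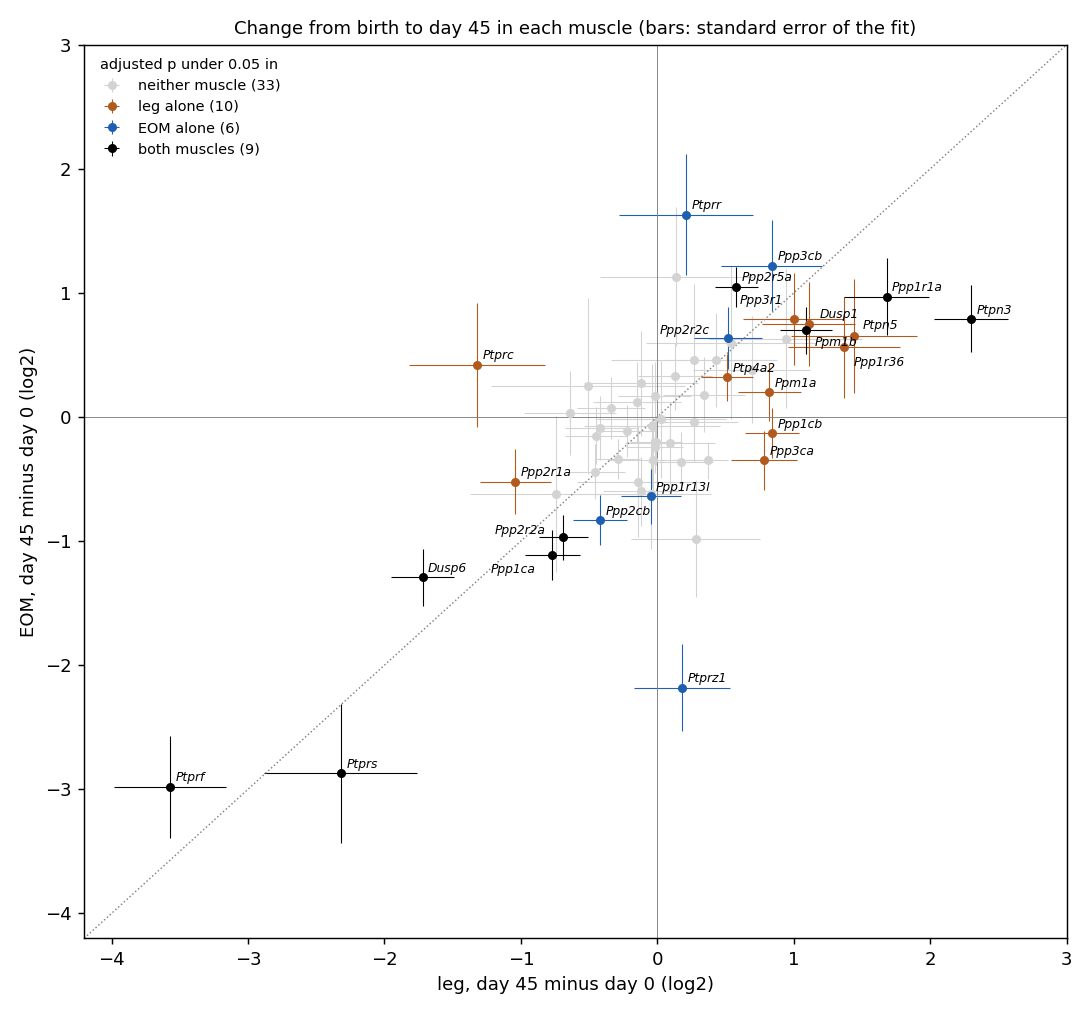
Log2 change from day 0 to day 45 in leg (horizontal) and EOM (vertical) for each of the 58 phosphatase genes, with standard errors, coloured by the muscles in which the change had an adjusted p under 0.05; the dotted line marks equal change. Ptprz1 lies farthest under the line, at 0.18 in leg and -2.18 in EOM, and Ptpn3 lies at 2.30 in leg and 0.79 in EOM.

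In 22 members no test was passed, neither between the muscles at any age, nor between days 0 and 45, nor over all ages. That is 37.9%, beside 43.8% of all probe sets tested. They are 4 of the 10 PP1 regulatory genes, 1 of the 7 PP2A genes, the 3 genes of the PP4, PP5 and PP6 types, 2 of the 4 Dusp genes, 7 of the 10 Ptpn genes and 5 of the 14 Ptpr genes (Ptprg, Ptprn, Ptprn2, Ptpro and Ptprq). Every PP1 catalytic, calcineurin, Ppm1 and Ptp4a gene passed at least 1 test. A miss with 3 arrays a group does not show that a gene was equal in the groups.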

How the data were processed

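Total RNA of both muscles was hybridised to Affymetrix rat arrays, per the labels. Each array has 1 deposited intensity per probe set; trimmed means of 1501 to 1502 on every array show that the values were already scaled alike, while the program behind the probe set summaries is not given in the sources used. The array number limits precision. All columns were mapped to samples by title.

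Intensities were floored at their 20th percentile (100.9, log2 6.66) and turned to log2, and 59 control probe sets were left out. A probe set above 320 on 3 or more arrays was tested. The 12 group means were fitted over 36 arrays with limma 3.58.1 in R 4.3.3 (trended prior, 24 residual and 5.84 prior degrees of freedom), with Benjamini-Hochberg adjustment over the 6674 probe sets and a threshold of 0.05. The fit was also run on simulated data with independent noise and planted shifts. Those data held no floored values or outlying arrays, so the run cannot speak to how stable single calls are here. Folds that involve floored arrays are lower bounds, and probe sets were not compared with each other in level. Gene names came from the platform annotation, and all 58 members matched RefSeq by gene ID. Plots were made with matplotlib 3.10.9 (python 3.11.15).

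Members, lists, markers and alternatives were chosen with earlier results of these data known. By rule, arrays are printed for members called between the muscles or in the difference of changes; calcineurin, PP1 and PP2A catalytic genes are described whether called or not; and up to 4 called genes of each list are named. Arrays printed for changes with age alone, and the promoter genes, were chosen after their values were seen. The alternatives were median scaling, quantile normalization, another floor, 2 other filters, no trend, arrays of the compared groups alone, all probe sets of a gene, a replicate block, and leaving out each array.

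Replicate numbers are shared by the groups. Deviations of same-numbered EOM and leg arrays correlated above 0.1 for all 3 numbers at day 7 (0.168, 0.131 and 0.296), day 14 (0.116, 0.106 and 0.164) and day 21 (0.101, 0.154 and 0.369). The values were 0.048, 0.101 and 0.054 at day 0, 0.104, -0.010 and 0.255 at day 28, and -0.095, 0.078 and 0.095 at day 45. Over all groups, the median was 0.097 for arrays of the same number and -0.055 for arrays of other numbers. Deviations from a group mean cancel within the group, so the second median follows largely from the first and is no separate evidence. The numbers may link arrays, and whether they do so at some ages or across the series was not tested. This hint comes from the data, not the labels, and blocked values are printed where a call changes.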

Additional observations from a re-analysis of the deposited data

Results flagged for a closer look

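For Ptpn3 and Ppp1cb, the change from day 0 to day 45 differed between the muscles by a test of the difference itself (limma). The log2 change in EOM minus that in leg was -1.51 for Ptpn3 (adjusted p = 0.019), which rose more in leg than in EOM. The Ptpn3 call was lost under 4 of 20 alternatives: without EOM day 45 replicate 3, without leg day 45 replicates 1 or 2, and on the compared arrays alone. The value was -0.97 for Ppp1cb (adjusted p = 0.0473), which rose in leg and was not called in EOM. The Ppp1cb call was lost under 14 of 20 alternatives, among them median scaling, no trend in the prior variance and leaving out most of the single arrays. In neither gene did the second probe set pass this test. The value for Ptprz1 was -2.37, given without a test because Ptprz1 passed the intensity filter through the EOM arrays of days 0 and 7 alone.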

How the results depend on the processing

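Of 66 called results of the members, 30 stayed called under every alternative fitted to the member probe set. The other 36 lost their call under at least 1, with 0 reversed. The 66 include results of Ptprz1 and Ptprr, which are given without a test. Of these, Ptprz1 at day 0 and with age in EOM is among the 30. Of the 30, 23 had no other tested probe set or had all of them called the same way (11 had a single one), and 7 did not: Ptpn3 at day 14, Ppm1b at day 28 and with age in leg, Ppp2r2a with age in EOM, Ppp2r1a with age in leg, and Ptprs with age in both muscles. Of the 66, 5 had another probe set of opposite sign, 0 of them called. The calls lost were 7 with arrays scaled to the same median, 5 with quantile normalization, 3 with the floor at the 10th percentile, 2 with no filter, 2 with no trend, 0 with the filter at the 50th percentile and 28 on the compared arrays alone. That scaling moves the median of all probe sets by -0.123 at day 0, -0.130 at day 21 and 0.107 for the EOM change. With the replicate block all 66 stayed called; the count rose to 7 at day 14 (3 higher, 4 lower in EOM) and 5 at day 21, and was 3, 3, 11 and 7 at days 0, 7, 28 and 45, 17 and 21 for the EOM and leg changes and 4 for the difference of changes. Fitted on the arrays of the compared groups alone, the counts were 0 at day 21, 5 at day 28, 2 at day 45, 8 for the EOM change and 0 for the difference of changes, where fewer arrays leave fewer degrees of freedom. Asking every tested probe set of a gene to be called the same way left 1 at day 14, 1 at day 21, 5 at day 28, 1 in the difference of changes and 14 over all ages in leg.

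Leaving out 1 array at a time gave counts of 3 to 4 at day 0, 1 to 3 at day 7 (1 without EOM replicate 2), 2 to 6 at day 14 (6 without EOM replicate 3), 1 to 4 at day 21 (1 without EOM replicate 3), 6 to 10 at day 28 (6 without leg replicate 3) and 6 to 9 at day 45. For the changes they were 12 to 15 in EOM, 14 to 20 in leg and 1 to 3 for their difference (1 without EOM day 45 replicate 3 or leg day 45 replicate 2), and over all ages 12 to 18 in EOM and 19 to 24 in leg. The cause of these shifts was not tested. Signals near the floor (Ptprz1, Ptprr, and Ptprf in leg at day 45) and in the brightest range (Ppp1r1a and Ppp1cb) give differences that can be understated.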
